A study of Mus musculus with 6 samples.

Results

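The TNF superfamily comprises the ligands related to tumour necrosis factor and the receptors that bind them. Its members were taken as every gene of the count table whose mouse symbol begins with Tnfsf or Tnfrsf followed by a digit, together with Tnf, Lta, Ltb, Ltbr, Fas, Fasl, Cd27, Cd70, Cd40, Cd40lg and Ngfr. This gave 43 of the 52856 rows: 17 ligands, 25 receptors and the antisense RNA gene Tnfsf13os. RNA was sequenced from splenic CD4+ T cells of C57BL/6 mice aged 8 weeks, after 48 hours of stimulation with antibodies against CD3 and CD28. The cells were wild type (WT, 3 libraries) or miPEP31-/- (miPEP31 KO, 3 libraries), and miPEP31 is a small peptide whose reading frame lies in the precursor RNA of a microRNA, miR-31. All 6 libraries were stimulated, so none shows the resting state. The labels do not say whether the libraries of a group came from separate animals, so p-values measure the spread between these libraries, which may be technical.

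TNF superfamily ligands are mostly trimeric membrane proteins, some of which are cut from the cell surface, and each binds one or a few receptors. Receptors with a death domain in their cytoplasmic tail, such as Fas, can start apoptosis, whereas most of the others recruit TRAF adaptor proteins and activate NF-kB and MAP kinases. Activated T cells use both sides of the family: they carry costimulatory receptors such as OX40, 4-1BB and GITR, and they display ligands such as CD40L and FasL to B cells, dendritic cells and each other.

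Levels are given in CPM (counts scaled to a common library size) scaled with the TMM method, and differences as log2 fold changes of KO over WT with their standard error (SE). Library totals ranged from 22865487 to 26295776 counts. A low-count filter left 14387 rows for testing, among them 33 members, namely 13 ligands and 20 receptors. Tnfsf15 passed this filter only through its KO libraries, so it could hardly be called other than higher, and the counts that include it carry that limit. A gene was called higher or lower at an adjusted p under 0.05 in the edgeR quasi-likelihood test with Benjamini-Hochberg adjustment over all tested rows. CD4 T cell markers summed to 1548 to 1673 CPM in WT and 1522 to 1579 CPM in KO, but 5 of the 6 were called, in both directions. Cd5 rose (374 ± 18 to 621 ± 28.0 CPM, SD, n = 3), whereas Cd4 (456 ± 38.6 to 302 ± 7.87 CPM), Trac, Cd3e and Cd3g fell. Of 8 macrophage and monocyte markers, Adgre1, C1qb and Fcgr1 had no count in any library. The 8 summed to 4.27 to 7.71 CPM in WT and 3.06 to 5.76 CPM in KO. Most of this was Cd68 (WT 5.47 ± 1.84 CPM, KO 3.91 ± 1.24 CPM, SD, n = 3), which was not called. Lyz2 went the other way, with 0, 0 and 1 counts in WT and 5, 7 and 10 in KO, too low to test.

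Of the 33 tested members, 12 were higher and 9 lower in KO. These are 36.4% and 27.3%, beside 25.1% and 22.2% of all tested rows, and 63.6% together, beside 47.3%. At least 2-fold calls were made for 13 members (39.4%), 8 higher and 5 lower, beside 13.8% of all tested rows (6.74% higher and 7.07% lower). The ligands held 8 of them, with Tnfsf4, Tnf, Tnfsf15, Lta and Tnfsf8 higher and Tnfsf14, Cd40lg and Ltb lower. The receptors held 5, with Ltbr, Cd40 and Fas higher and Cd27 and Tnfrsf25 lower. Values of the 2 groups were fully separate in 22 members (66.7%), with KO above in 12 and below in 10, beside 59.1% of all tested rows (30.6% above and 28.4% below). The median log2 fold change was 0.20 over the tested members and 0.01 over all tested rows. The count of lower members was 5 without WT replicate 1.

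**Figure D1:**
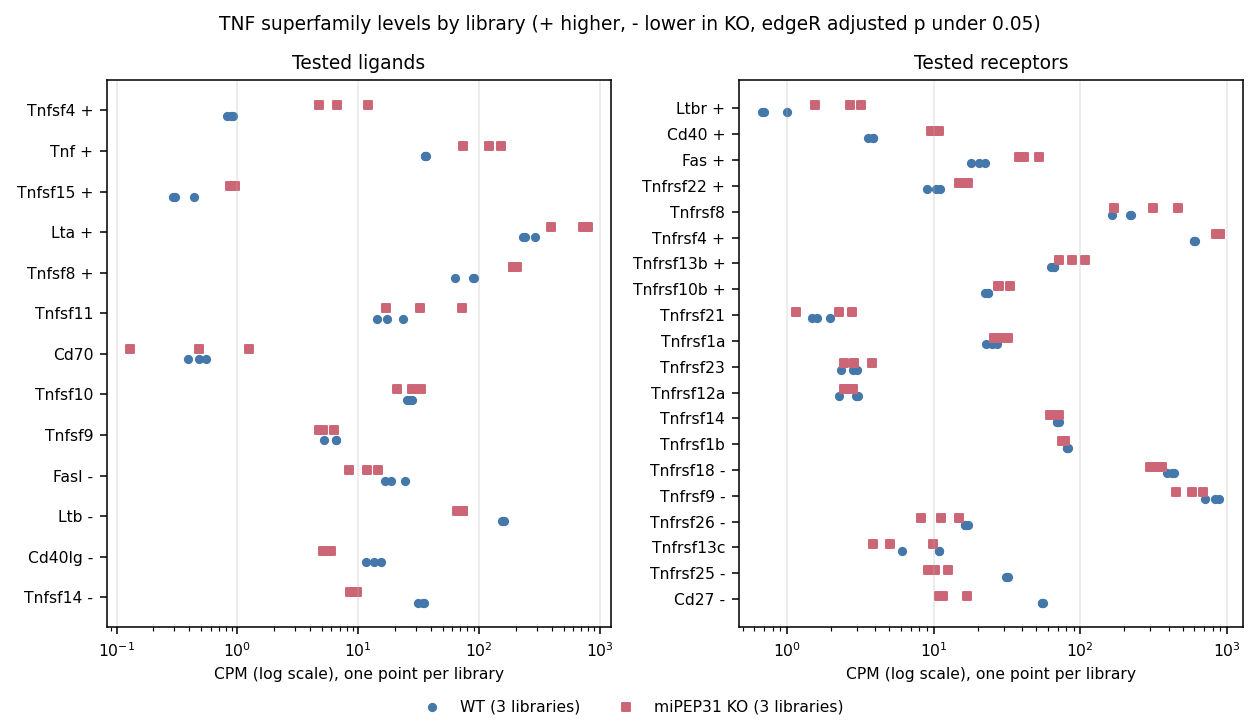
CPM on a log scale for the 13 tested ligands and 20 tested receptors, with 1 point per library (circles, WT; squares, miPEP31 KO), ordered by log2 fold change. Plus and minus signs mark the 12 members called higher and the 9 called lower in KO. Tnfsf4 and Ltbr stand at the top of their panels and Tnfsf14 and Cd27 at the bottom.

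Among the ligands, the genes of the lymphotoxin and TNF locus went opposite ways. Lta, Tnf and Ltb lie within 10.9 kb on chromosome 17 (GRCm38): Ltb at 35194439 to 35196320 on the plus strand, Tnf at 35199381 to 35202007 and Lta at 35203165 to 35205351, both on the minus strand. To show the sequence beside these close neighbours, the stretches upstream of their RefSeq start sites (build GRCm38.p6) are shown 5′ to 3′ on the gene's own strand. Capitals mark matches on either strand to an NF-kB-type decamer (GGG, any 2 bases, then TTTCC) or to TTCNNNGAA (a GAS-type element, the kind bound by STAT factors).
Lta, chr17:35205352-35205601, minus strand: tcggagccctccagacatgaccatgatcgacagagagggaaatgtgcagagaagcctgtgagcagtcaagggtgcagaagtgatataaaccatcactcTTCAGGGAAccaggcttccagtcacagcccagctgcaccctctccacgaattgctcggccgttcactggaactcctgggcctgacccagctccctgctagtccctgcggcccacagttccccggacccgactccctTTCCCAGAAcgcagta
Tnf, chr17:35202008-35202257, minus strand: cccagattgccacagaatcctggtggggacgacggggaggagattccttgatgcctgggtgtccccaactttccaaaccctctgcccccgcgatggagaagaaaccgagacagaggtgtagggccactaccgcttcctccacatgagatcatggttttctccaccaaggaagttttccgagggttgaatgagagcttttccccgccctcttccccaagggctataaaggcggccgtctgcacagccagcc
Ltb, chr17:35194257-35194438, plus strand: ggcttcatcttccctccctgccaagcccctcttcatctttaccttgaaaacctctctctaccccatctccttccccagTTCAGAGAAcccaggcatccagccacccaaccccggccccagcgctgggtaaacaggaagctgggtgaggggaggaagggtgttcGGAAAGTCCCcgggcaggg
The Ltb stretch stops at 182 bases, because the next 68 lie within the GENCODE gene. Lta held 2 matches to TTCNNNGAA, Ltb held 1, and Ltb also held 1 match to the NF-kB-type decamer. The Tnf window held neither, and none of the 3 windows matched an interferon-response-type element (GAAA, any 2 bases, then GAAA) or TGANTCA (an AP-1-type element). Over the 250 bases upstream of all 32851 RefSeq starts in the table, 1.41% held the NF-kB-type decamer, 7.02% TTCNNNGAA, 2.98% the interferon-response-type element and 6.75% TGANTCA. Of the 32 members with a window, the NF-kB-type decamer was found for Ltb, Tnfrsf25 and Tnfrsf9. The interferon-response-type element was found for Tnfrsf14, Tnfrsf17, Tnfrsf1b and Tnfsf13b. TTCNNNGAA was found for 8 members (Fas, Lta, Ltb, Tnfrsf18, Tnfrsf1a, Tnfrsf1b, Tnfrsf25 and Tnfrsf9), and TGANTCA for 6 (Fas, Tnfrsf8, Tnfrsf9, Tnfsf13, Tnfsf13b and Tnfsf14). Such matches describe the letters in these windows only.

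Tnf, which encodes the founding cytokine of the family, stood at 35.5, 36.6 and 36.0 CPM in WT replicates 1 to 3 and at 151, 121 and 74.0 CPM in KO replicates 1 to 3. All KO libraries were above all WT libraries, and KO replicate 3 was the lowest of the KO. Tnf rose 3.21-fold (log2 fold change 1.68, SE 0.22, edgeR adjusted p = 6.47e-04). Lta, the gene of lymphotoxin alpha, which forms soluble trimers or joins lymphotoxin beta at the membrane, stood at 292, 232 and 241 CPM in WT and 724, 792 and 395 CPM in KO. It rose 2.50-fold (log2 fold change 1.32, SE 0.23, edgeR adjusted p = 0.00256), and KO replicate 3 was again the lowest of the KO. Without the low-count filter its adjusted p was 0.0526. Ltb, the gene of the membrane-anchored lymphotoxin beta, had 156, 161 and 155 CPM in WT and 66.2, 73.3 and 73.3 CPM in KO. The groups did not overlap, the libraries within each were close together, and Ltb was 2.22-fold lower (log2 fold change -1.15, SE 0.06).

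The largest rise of any tested member was that of Tnfsf4 (ENSMUSG00000026700, chromosome 1, 161395409 to 161418410, plus strand), the gene of OX40L. It had 0.823, 0.887 and 0.914 CPM in WT, from 19 to 21 counts, and 12.1, 6.66 and 4.73 CPM in KO, from 110 to 281 counts. Every KO library was above every WT library, and KO replicate 1 was the highest. The rise was 8.90-fold (log2 fold change 3.15, SE 0.38, edgeR adjusted p = 3.94e-04), and 6.48-fold without KO replicate 1. OX40L is best known on antigen-presenting cells. Markers of dendritic cells summed to 6.25 to 7.58 CPM in WT and 12.0 to 13.1 CPM in KO, most of it from Zbtb46 (WT 4.54 ± 1.24 CPM, KO 9.37 ± 1.83 CPM, SD, n = 3) and Flt3 (WT 1.44 ± 0.455 CPM, KO 2.08 ± 0.997 CPM, SD, n = 3). Among the 6 dendritic cell markers, 1 passed the test as higher, Clec9a had no count, and Xcr1 and Siglech were too low to test. The part of such cells in the Tnfsf4 result was not tested, and fewer or more cells of a type cannot be told apart from less or more RNA per cell in these bulk samples.

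A pair of neighbours on chromosome 4 were both called higher. Tnfsf8, the gene of CD30L, went from 62.8, 90.6 and 88.3 CPM in WT to 205, 192 and 191 CPM in KO, a 2.43-fold rise (log2 fold change 1.28, SE 0.13, edgeR adjusted p = 1.85e-04). Tnfsf15, the gene of TL1A, lies 86.2 kb from it and was near the limit of detection, at 0.303, 0.296 and 0.435 CPM in WT and 0.949, 0.893 and 0.860 CPM in KO. Its KO libraries held 20 to 24 counts each and its WT libraries 7 to 10, and it rose 2.59-fold (log2 fold change 1.37, SE 0.33, edgeR adjusted p = 0.00958). The groups did not overlap for either gene. Since Tnfsf15 entered the test only through the group where it is high, its call among the tested rows is no support. Without the low-count filter its adjusted p was 0.0257, and with a minimum of 1 CPM in 3 libraries it was not tested.

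Besides Ltb, 3 ligands fell. Tnfsf14, the gene of LIGHT, which engages HVEM and the lymphotoxin beta receptor, had 34.4, 31.2 and 35.3 CPM in WT and 9.79, 8.52 and 9.59 CPM in KO. It was 3.62-fold lower, the largest fall among the tested ligands. Cd40lg, the gene of CD40L, through which helper T cells license B cells and dendritic cells, had 15.5, 13.4 and 11.6 CPM in WT and 5.95, 5.40 and 5.12 CPM in KO, and was 2.46-fold lower (edgeR adjusted p = 2.62e-04). Fasl, the ligand that triggers apoptosis through Fas, had 24.4, 18.6 and 16.6 CPM in WT and 14.4, 11.7 and 8.34 CPM in KO. The groups did not overlap for any of the 3 genes. Fasl fell by 0.79 on the log2 scale (SE 0.21, edgeR adjusted p = 0.0168), and leaving out WT replicate 1 (adjusted p = 0.0704) or KO replicate 2 (adjusted p = 0.0533) ended its call.

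The other 4 tested ligands did not pass. Tnfsf10, the gene of the death ligand TRAIL, is known as an interferon-inducible gene. It had 28.0, 26.6 and 25.2 CPM in WT and 32.8, 28.0 and 20.8 CPM in KO, with overlapping groups, and it did not pass (log2 fold change 0.03, SE 0.15, edgeR adjusted p = 0.881). In the same libraries Irf7, an interferon-inducible transcription factor gene, went from 1.99 ± 0.318 to 159 ± 31.0 CPM (SD, n = 3). The part of interferon in either value was not tested. Tnfsf11, the gene of RANKL, which drives osteoclast formation, had 23.5, 14.2 and 17.3 CPM in WT and 71.5, 32.6 and 16.9 CPM in KO. KO replicate 1 was 4.24 times KO replicate 3, and the difference missed the threshold (log2 fold change 1.14, SE 0.46, edgeR adjusted p = 0.0735). Without KO replicate 3 it passed (log2 fold change 1.49, adjusted p = 0.0432). Cd70 had 0.477, 0.549 and 0.392 CPM in WT and 1.25, 0.484 and 0.129 CPM in KO. KO replicate 1 was thus above and KO replicate 3 below all WT libraries. The log2 fold change of Cd70, 0.38 (SE 0.67), turned to -0.58 without KO replicate 1. Tnfsf9, the gene of 4-1BBL, had 5.24, 6.51 and 6.57 CPM in WT and 4.74, 5.06 and 6.32 CPM in KO (log2 fold change -0.18, SE 0.17). Its exons share 192 bases with Gm11110 on the opposite strand.

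Among the receptors, 7 were higher and 5 lower (35% and 25% of the 20 tested, beside 25.1% and 22.2% of all tested rows). Leaving out WT replicate 1 reduced the lower receptors to 2, and leaving out WT replicate 2 or KO replicate 2 to 3. The costimulatory receptor genes that dominate activated T cells changed by small amounts and in both directions. Tnfrsf4, the gene of OX40, stood at 605, 598 and 593 CPM in WT and at 843, 891 and 892 CPM in KO, with no overlap (1.46-fold higher). Tnfrsf9, the gene of 4-1BB, stood at 885, 834 and 708 CPM in WT and 450, 573 and 688 CPM in KO, where KO replicate 3 came close to WT replicate 3. It was 1.42-fold lower (log2 fold change -0.50, SE 0.15, edgeR adjusted p = 0.0246), and the call was lost without WT replicate 1, WT replicate 2 or KO replicate 2 (adjusted p 0.0767 to 0.0961) or with no filter on low counts (adjusted p = 0.111). Tnfrsf18, the gene of GITR, lies 9.55 kb from Tnfrsf4 on chromosome 4 and went the other way, from 434, 421 and 393 CPM in WT to 301, 341 and 359 CPM in KO (1.25-fold lower, edgeR adjusted p = 0.0115). Its adjusted p was 0.0501 without WT replicate 1. Its exons share 414 bases with the antisense gene Gm16008, from which reads cannot be told apart where strand was not used.

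Cd27 (ENSMUSG00000030336, chromosome 6, 125232622 to 125237010, minus strand), a costimulatory receptor of naive and memory T cells, had the largest fall of any tested member. It stood at 54.9, 55.9 and 54.8 CPM in WT and at 11.0, 11.7 and 16.9 CPM in KO. The WT libraries were nearly identical and all KO libraries lay far below them, and Cd27 was 4.19-fold lower (log2 fold change -2.07, SE 0.15, edgeR adjusted p = 4.43e-05). The microRNA gene Mir8113 shares 129 exon bases with Cd27. Ltbr, the lymphotoxin beta receptor gene, lies 69.6 kb away and had 0.997, 0.676 and 0.696 CPM in WT and 1.55, 2.68 and 3.18 CPM in KO. It is known mainly from stromal and myeloid cells and was near the limit of detection here, with 16 to 23 counts in WT libraries and 36 to 74 in KO libraries (3.12-fold higher, SE of the log2 fold change 0.34, edgeR adjusted p = 0.00512). Tnfrsf1a, the third gene of this stretch, is described with the death domain receptors.

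Cd40, a receptor of B cells and other antigen-presenting cells that some activated T cells also carry, had 3.55, 3.84 and 3.87 CPM in WT and 10.3, 9.68 and 10.9 CPM in KO. The KO libraries were close to each other and all above the WT libraries, a 2.74-fold rise (log2 fold change 1.45, SE 0.13, edgeR adjusted p = 8.86e-05). B cell markers summed to 68.4 to 104 CPM in WT and 69.1 to 125 CPM in KO, with 3 of 8 higher and 1 lower. The higher ones were Cd79a (2.05-fold, WT 7.78 ± 2.40 CPM, KO 16.0 ± 7.24 CPM, SD, n = 3), Ms4a1 (1.89-fold) and Cd79b (1.70-fold), and the lower one was Fcer2a (1.96-fold). The part of B cells in the Cd40 result was not tested. Tnfrsf13b, the gene of TACI, a receptor of BAFF and APRIL, had 62.9, 66.4 and 66.2 CPM in WT and 71.3, 87.8 and 108 CPM in KO (1.37-fold higher, edgeR adjusted p = 0.0247). Its call was lost when any one of the WT libraries or KO replicate 2 was left out (adjusted p 0.0692 to 0.0902). Tnfrsf13c, the gene of the BAFF receptor, had 10.8, 6.08 and 10.8 CPM in WT and 3.84, 5.06 and 9.89 CPM in KO and did not pass (log2 fold change -0.56, SE 0.36), but passed without KO replicate 3 (log2 fold change -1.06, adjusted p = 0.0138).

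Of 5 tested receptors with a death domain, 2 rose and 1 fell (40% and 20%, beside 25.1% and 22.2% of all tested rows). Fas had 22.4, 18 and 20.3 CPM in WT and 52.0, 41.3 and 38.2 CPM in KO, a 2.17-fold rise without overlap (edgeR adjusted p = 3.71e-04). Tnfrsf10b, the gene of the mouse TRAIL receptor DR5, had 23.4, 22.5 and 23.6 CPM in WT and 33.0, 27.5 and 27.9 CPM in KO (1.27-fold higher, edgeR adjusted p = 0.0148), and its adjusted p was 0.0638 without WT replicate 2. Tnfrsf25, the gene of DR3, a costimulatory receptor of T cells, went from 32.1, 31.0 and 31.9 CPM in WT to 10.2, 12.6 and 9.12 CPM in KO. The groups were far apart, and Tnfrsf25 was 2.97-fold lower (log2 fold change -1.57, SE 0.12, edgeR adjusted p = 5.41e-05). Tnfrsf1a, the gene of TNFR1, had 27.0, 22.7 and 25.0 CPM in WT and 25.8, 27.8 and 32.0 CPM in KO (log2 fold change 0.20, SE 0.11). Tnfrsf21, the gene of DR6, had 1.48 to 1.96 CPM in WT and 1.16 to 2.76 CPM in KO (log2 fold change 0.30, SE 0.33). These last 2 did not pass.

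None of the 4 receptors that follow passed. Tnfrsf1b, the gene of TNFR2, had 82.1, 81.3 and 80.7 CPM in WT and 76.2, 79.2 and 75.2 CPM in KO. The groups did not overlap, but the log2 fold change of -0.08 (SE 0.05) did not pass. Tnfrsf14, the gene of HVEM, had 69.8, 69.7 and 71.7 CPM in WT and 71.3, 62.1 and 66.5 CPM in KO (log2 fold change -0.08, SE 0.07). Tnfrsf8, the gene of CD30, had 165, 217 and 221 CPM in WT and 170, 311 and 462 CPM in KO, where KO replicate 1 lay within the WT range. It did not pass (log2 fold change 0.65, SE 0.31, edgeR adjusted p = 0.118), but did so without KO replicate 1, at 0.94 (adjusted p = 0.0176). Tnfrsf12a, the receptor gene of TWEAK, did not pass (log2 fold change -0.06, SE 0.20).

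Tnfrsf22, Tnfrsf23 and Tnfrsf26 form a 78.2 kb stretch on chromosome 7, and the first pair encode decoy receptors of TRAIL. Tnfrsf22 had 11.1, 9.04 and 10.3 CPM in WT and 14.8, 17.1 and 16.8 CPM in KO (1.60-fold higher, edgeR adjusted p = 0.00212). Tnfrsf23 had 2.34, 3.00 and 2.83 CPM in WT and 2.89, 2.46 and 3.78 CPM in KO and did not pass. Tnfrsf26 had 17.2, 16.3 and 16.5 CPM in WT and 8.20, 11.2 and 14.9 CPM in KO. It passed narrowly (1.46-fold lower, edgeR adjusted p = 0.0470), and the call was lost when any 1 library except KO replicate 3 was left out (adjusted p 0.0502 to 0.131) and with plain library sizes (adjusted p = 0.0658). These genes resemble each other in sequence and Tnfrsf23 and Tnfrsf26 overlap an antisense gene, so their levels are uncertain.

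**Figure D2:**
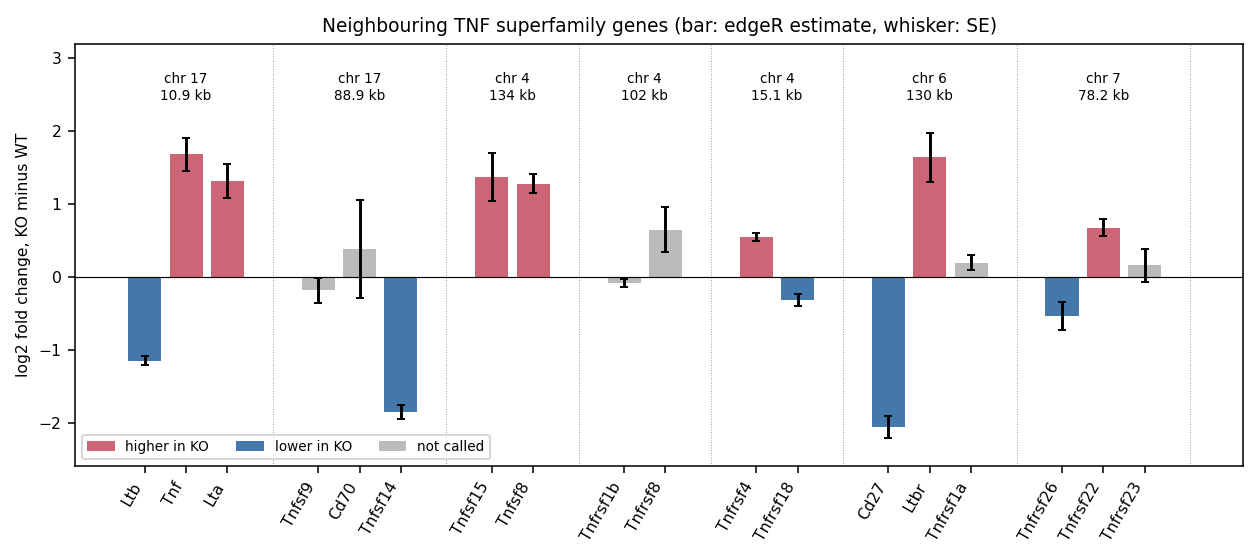
Log2 fold changes (bars) with their SE (whiskers) for members that lie within 100 kb of another member, in 7 stretches with at least 2 tested members, with the chromosome and the length of each stretch above. In 4 of them, at least 1 member was called higher and at least 1 lower, as in the stretches that begin with Ltb (-1.15) and Cd27 (-2.07).

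The family is strongly clustered in the genome, which allowed neighbours to be compared. Of the 43 members, 23 lay within 100 kb of another, in 9 stretches, of which 7 held at least 2 tested members. Of these 7, 4 held both a higher and a lower member: Ltb beside Tnf and Lta, Cd27 beside Ltbr, Tnfrsf18 beside Tnfrsf4, and Tnfrsf26 beside Tnfrsf22. The calls of Tnfrsf18 and Tnfrsf26 depended on single libraries, as given above. With 47.3% of all tested rows called, no share was taken over other neighbouring genes. Tnfsf14 fell beside Cd70 and Tnfsf9, which did not pass. Tnfsf8 and Tnfsf15 were the stretch in which every tested member was called in the same direction, with the limit given for Tnfsf15.

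Ligands and receptors were then read as pairs. Of 27 known pairs, 17 had both partners tested, with 12 ligands and 14 receptors among them. In 5 pairs the partners were called in opposite directions, in 1 pair both were higher, in none were both lower, in 10 pairs 1 partner was called, and in 1 pair neither was. Pairs that share a gene are not independent. Of all tested rows, 25.1% were higher and 22.2% lower, and the same pair patterns were not counted over other gene pairs. These pattern counts thus have no background to stand beside.

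**Figure D3:**
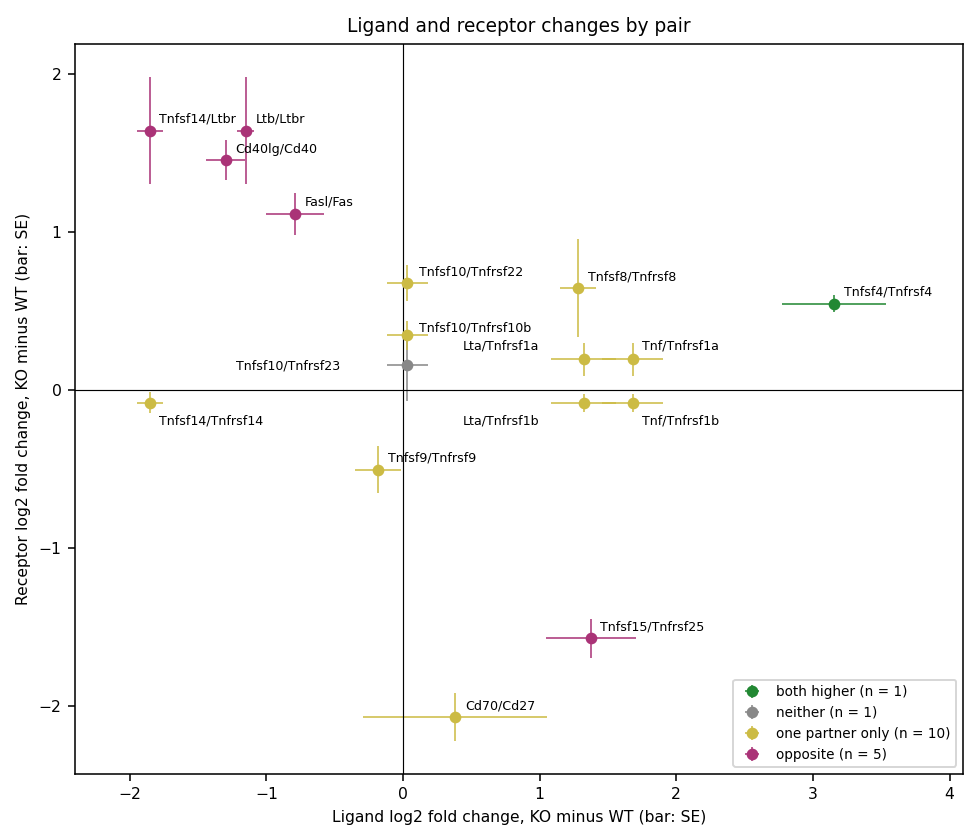
Log2 fold change of the ligand (horizontal) against that of its receptor (vertical) for the 17 pairs with both partners tested, with SE bars. The 4 pairs at upper left have a lower ligand and a higher receptor, Tnfsf15 and Tnfrsf25 stand at lower right, and Tnfsf4 with Tnfrsf4 is the pair with both partners higher.

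In 4 of the 5 opposite pairs the ligand was lower and the receptor higher: Cd40lg and Cd40, Fasl and Fas, Ltb and Ltbr, and Tnfsf14 and Ltbr. For Cd40lg over Cd40, the log2 ratio of ligand to receptor, both per kb of exon, was 3.57, 3.25 and 3.03 in WT and 0.65, 0.60 and 0.35 in KO. Per kb of exon, Cd40lg thus stood above Cd40 in every library, by less in each KO library. In KO this order rests on the annotated exon lengths, 1.25 kb for Cd40lg and 3.41 kb for Cd40. In CPM, Cd40 (9.68 to 10.9) was above Cd40lg (5.12 to 5.95) in every KO library. In WT, Cd40lg (11.6 to 15.5 CPM) was above Cd40 (3.55 to 3.87 CPM) by either measure. For Fasl over Fas the ratio was 0.22, 0.14 and -0.20 in WT and -1.76, -1.73 and -2.11 in KO, so that the partners were at near-equal levels in WT and Fas exceeded Fasl in every KO library. For Ltb over Ltbr it went from a mean of 8.30 ± 0.33 to 5.54 ± 0.46, and for Tnfsf14 over Ltbr from 5.78 ± 0.29 to 2.32 ± 0.59 (SD, n = 3). The fifth opposite pair, which rests on the Tnfsf15 call limited as above, ran the other way. For Tnfsf15 over Tnfrsf25 the ratio went from -7.10 ± 0.30 to -4.10 ± 0.23, with Tnfrsf25 RNA far above that of Tnfsf15 in every library.

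Among the listed pairs, Tnfsf4 and Tnfrsf4 were the one in which both partners were called higher. The log2 ratio of Tnfsf4 to Tnfrsf4 went from -9.95, -9.83 and -9.77 in WT to -6.55, -7.50 and -7.99 in KO. RNA of the receptor thus remained far more abundant than that of the ligand. Tnf and Lta rose while neither of the receptors paired with them, Tnfrsf1a and Tnfrsf1b, passed. Lta, whose product joins lymphotoxin beta at the membrane, was not listed as a partner of Ltbr, and both Lta and Ltbr were called higher. The ratio of Tnf to Tnfrsf1b was 0.01, 0.07 and 0.05 in WT and 2.21, 1.84 and 1.2 in KO. For Tnfsf14 and Tnfrsf14 it was the ligand gene that fell (ratio -1.43 ± 0.08 in WT and -3.20 ± 0.04 in KO, SD, n = 3). For Cd70 and Cd27 the receptor fell, and the ratio overlapped between groups (-5.41 ± 0.23 and -3.45 ± 1.97). Over the 17 pairs, the ratio did not overlap between groups in 13, being higher in KO in 6 and lower in 7. Each of these 13 had a two-sided exact permutation p of 0.1, the smallest that 3 against 3 libraries allow, and 0.131 adjusted over the 17 pairs. Among all tested rows, 59.1% of single genes were separate between groups, and no share was taken over other gene pairs. The count of 13 thus has no background of ratios to stand beside.

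**Figure D4:**
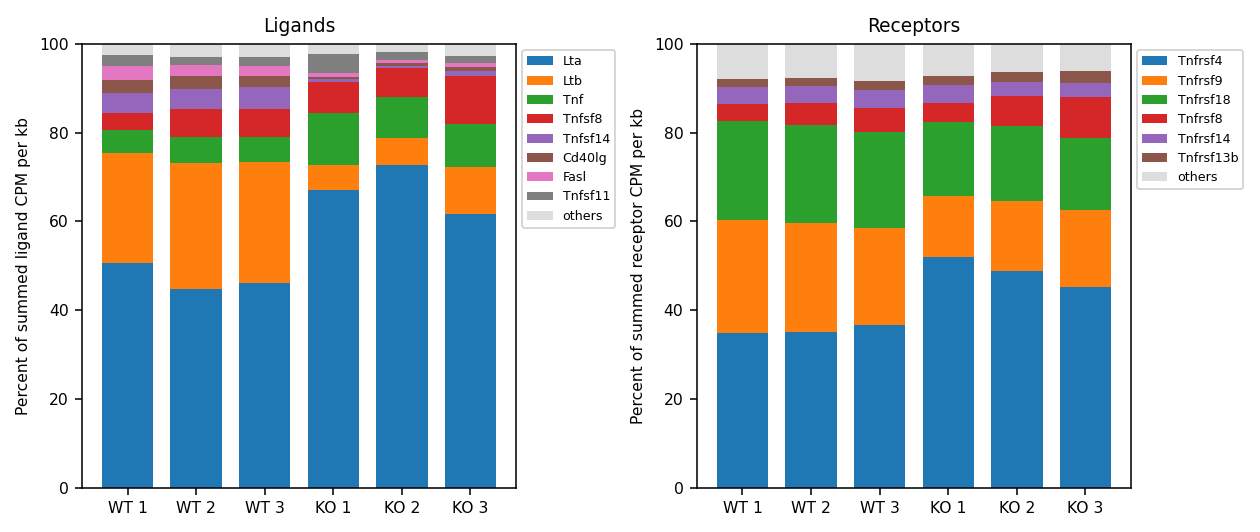
Share of each gene in the summed CPM per kb of all 17 ligands (left) and all 25 receptors (right), with 1 bar per library. The Lta segment widens and the Ltb segment narrows in KO, and Tnfrsf4 widens while Tnfrsf9 and Tnfrsf18 narrow.

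Levels of different genes were compared per kb of annotated exon. In WT the ligands ranked Lta (184 CPM per kb), Ltb (104), Tnf (22.0), Tnfsf8 (21.2), Tnfsf14 (18.2), Cd40lg (10.8), Fasl (10.3), Tnfsf11 (8.19), Tnfsf10 (5.05) and Tnfsf9 (4.73), with the other 7 below 1. The libraries of neighbours in this order overlapped for Tnf and Tnfsf8, Tnfsf8 and Tnfsf14, Cd40lg and Fasl, Fasl and Tnfsf11, and Tnfsf10 and Tnfsf9, and were separate at the other steps among these 10. Lta and Ltb together held 73.1% to 75.3% of the ligand total in WT and 72.2% to 78.7% in KO, but their split changed. Lta held 47.2% ± 3.06 in WT and 67.1% ± 5.42 in KO, and Ltb 26.7% ± 1.85 and 7.39% ± 2.67 (SD, n = 3). By group means Ltb went from rank 2 to rank 4, behind Tnf and Tnfsf8, and Tnfsf14 from rank 5 to rank 8. In KO replicate 3, however, Ltb (48.4 CPM per kb) was above Tnf (45.1), and the KO libraries of Tnfsf14 overlapped those of Tnfsf10 and Cd40lg. The ligand total per kb was 417, 376 and 378 in WT and 781, 789 and 463 in KO.

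The receptors were led in every library by Tnfrsf4, Tnfrsf9 and Tnfrsf18, which held 80.1% to 82.7% of the receptor total per kb in WT and 78.9% to 82.4% in KO. Within this trio, Tnfrsf4 held 35.5% ± 0.958 in WT and 48.6% ± 3.41 in KO, Tnfrsf9 24.0% ± 1.89 and 15.7% ± 1.78, and Tnfrsf18 22.0% ± 0.339 and 16.5% ± 0.237 (SD, n = 3). Tnfrsf9 and Tnfrsf18 overlapped each other in both groups. Cd27 went from rank 6 in WT to rank 10 in KO, and Fas from rank 10 to rank 7, by group means. In KO, Cd27 overlapped Tnfrsf10b, and Fas overlapped Tnfrsf13b and Tnfrsf1b. The receptor total was 1273, 1251 and 1189 CPM per kb in WT and 1189, 1335 and 1448 in KO, with overlapping groups.

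The KO libraries varied more than the WT libraries. The highest KO library was at least 1.5 times the lowest in 16 of the 33 tested members (48.5%), beside 26.3% of all tested rows, and the corresponding count among the WT libraries was 2. KO replicate 1 was the highest in 7 of these 16 and KO replicate 3 in 8. The wider KO spread was not particular to the family. The median ratio of highest to lowest library was 1.38 in KO and 1.23 in WT over the members. Over all tested rows it was 1.23 in KO and 1.14 in WT. Members highest in KO replicate 1 included Tnfsf4, Tnf, Tnfsf11, Cd70 and Fasl. Those highest in KO replicate 3 included Tnfrsf8, Tnfrsf13b, Tnfrsf13c, Tnfrsf26, Tnfrsf9, Cd27 and Ltbr. Cd40, Tnfsf8, Tnfsf15, Ltb, Cd40lg, Tnfsf14, Tnfrsf4 and Tnfrsf22 varied by at most 1.16 times among the KO libraries. Summed NK cell markers were 21.9, 16.0 and 10.5 CPM in KO replicates 1 to 3, beside 5.09 to 7.50 CPM in WT, and CD8 T cell markers 15.9, 28.0 and 36.9 CPM, beside 12.5 to 15.8 CPM in WT. Every KO library was thus above every WT library for both sums, and Cd8a (3.72-fold, edgeR adjusted p = 0.00232) and Eomes (2.90-fold, edgeR adjusted p = 0.00337) were called higher. Eomes made up most of the NK cell sum, at 21.4, 15.3 and 9.89 CPM in KO replicates 1 to 3. Klrb1c was not called (log2 fold change -1.01), and Ncr1 and Klra8 were too low to test. Cd8b1 was not called (edgeR adjusted p = 0.158). Its KO replicate 1 (8.67 CPM) was below all WT libraries (9.75 to 11.3 CPM). The part of such cells in the spread or in the differences between groups was not tested.

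**Figure D5:**
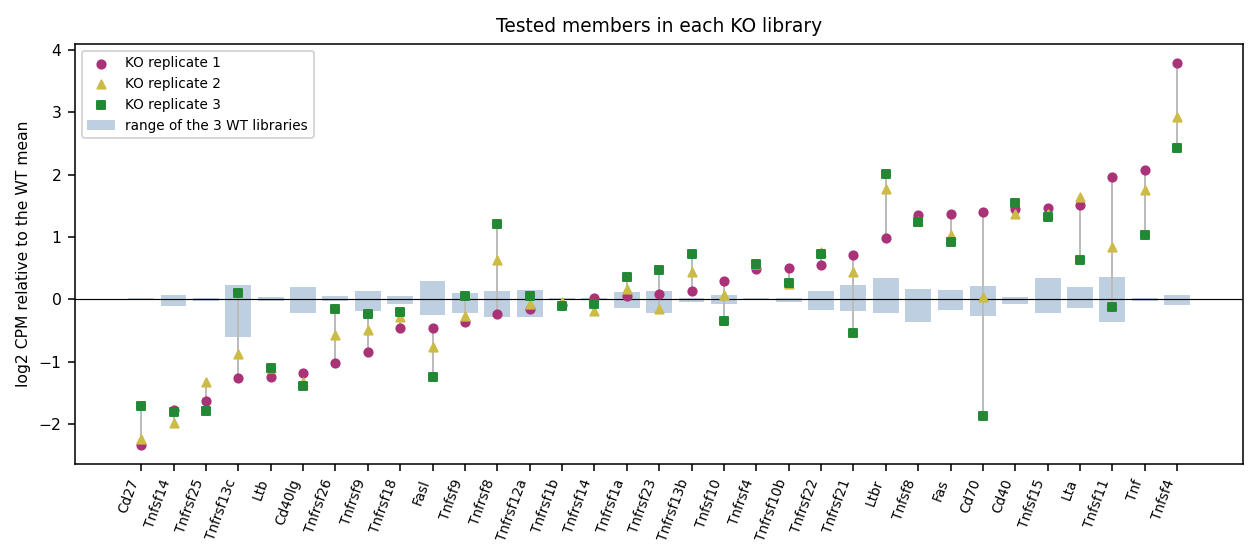
Log2 CPM of each tested member in the 3 KO libraries relative to the WT mean (points), with the range of the 3 WT libraries as a bar around 0. Genes are ordered by KO replicate 1. Cd70, Tnfsf11, Tnfrsf8 and Tnfrsf13c have KO libraries far apart, whereas those of Tnfsf8, Cd40, Tnfsf15 and Ltb lie close together.

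The 10 members that were not tested were at or near the limit of detection. Tnfrsf17, the gene of BCMA, and Tnfsf18, the gene of GITRL, had no count in any library, which allows up to 0.112 to 0.131 CPM per library (3 counts, counting error only). The ligand transcript of GITR was thus not detectable at this depth. Ngfr had 1 count in all, Tnfsf13os 4, Tnfsf13 5, Tnfsf12 22, Tnfrsf11a 20 and Tnfsf13b 45. Tnfsf12 and Tnfsf13 share exons with the readthrough gene Tnfsfm13, so their reads can be split. Tnfrsf19, the gene of TROY, had 0, 2 and 0 counts in WT and 32, 11 and 8 in KO. The ratio of KO to WT was 24.3 (95% exact counting interval 6.38 to 206, counting error only), and without the low-count filter the edgeR adjusted p was 0.00169. Tnfrsf11b, the gene of the RANKL decoy osteoprotegerin, had 2, 6 and 1 counts in WT and 7, 7 and 25 in KO (without the filter, edgeR adjusted p = 0.0493).

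Genes that act beside or below the receptors were read from lists of adaptors, kinases, NF-kB factors, death pathway genes and proteases. Of 77 tested, 28 were higher and 13 lower (36.4% and 16.9%, beside 25.1% and 22.2% of all tested rows). The count of lower genes was 7 without WT replicate 1 and 8 with plain library sizes. The median log2 fold change was 0.10. Folds of at least 2 were called for 7 of them (9.09%, beside 13.8% of all tested rows), so that most of these changes were small.

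Of 14 NF-kB kinases, factors and inhibitors, 7 were higher and 3 lower (50% and 21.4%, beside 25.1% and 22.2% of all tested rows). Their median log2 fold change was 0.28. Leaving out WT replicate 1, 2 or 3, or using plain library sizes, left 1 lower. Relb, the transactivating subunit of the non-canonical pathway, rose by 0.61 (SE 0.07) on the log2 scale, and the inhibitor genes Nfkbie and Nfkbia by 0.73 (SE 0.09) and 0.61 (SE 0.08). The kinase genes split: Chuk, which encodes IKK-alpha, rose by 0.56 (SE 0.07), whereas Ikbkb, which encodes IKK-beta, fell by 0.38 (SE 0.06).

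Of 22 genes of the TNFR1 complex and its ubiquitin machinery, 9 were higher and 3 lower (40.9% and 13.6%), with a median of 0.16. Of all tested rows, 25.1% were higher and 22.2% lower. Tradd and Ripk1, the adaptor and kinase that assemble on TNFR1, rose by 0.69 (SE 0.10) and 0.54 (SE 0.07), the kinase gene Tbk1 by 0.43 (SE 0.06) and Rnf31, which encodes the catalytic subunit of the linear ubiquitin ligase, by 0.34 (SE 0.06). The largest difference was in Tnip3, a partner of the NF-kB inhibitor A20, which went from 46.0 ± 4.84 CPM in WT to 2.31 ± 0.635 CPM in KO (SD, n = 3; log2 fold change -4.31, SE 0.18, edgeR adjusted p = 3.63e-06). Of 14 TRAF adaptors and partners, 3 were higher and 2 lower (21.4% and 14.3%), with a median of 0.05. Traf5, an adaptor of OX40, CD27 and other receptors, rose by 0.60 (SE 0.09), Tank by 0.27 (SE 0.07) and Traf2 by 0.20 (SE 0.06), and Traf4 and Traf3ip3 fell by 0.43 (SE 0.07) and 0.29 (SE 0.08). Of the 3 higher genes 1 was left without WT replicate 2 or 3, and of the 2 lower genes 1 was left without WT replicate 1 or KO replicate 2.

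Of 15 death receptor pathway genes, 6 were higher and 2 lower (40% and 13.3%, beside 25.1% and 22.2% of all tested rows). Their median log2 fold change was 0.09. Mlkl, the executioner of necroptosis, went from 12.9 ± 1.69 to 41.9 ± 5.76 CPM (SD, n = 3; log2 fold change 1.70, SE 0.13). Daxx, a Fas-binding and nuclear chaperone protein, rose by 1.38 (SE 0.12), and Cflar, the inhibitor of caspase-8 activation, by 0.33 (SE 0.06). Fcmr, once described as a Fas apoptosis inhibitor and now known as the IgM Fc receptor, fell by 2.01 (SE 0.29). Casp8 itself did not pass (log2 fold change 0.09, SE 0.06). The lower count was 1 when WT replicate 1, 2 or 3 or KO replicate 2 was left out and with plain library sizes, and 4 without KO replicate 1 or KO replicate 3.

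Of 9 tested sheddases, proteases and inhibitors, 3 were higher and 1 lower (33.3% and 11.1%, beside 25.1% and 22.2% of all tested rows). Their median log2 fold change was 0.10. Rhbdf2, which encodes iRhom2, the trafficking partner of the TNF-cleaving protease ADAM17, went from 20.6 ± 1.02 to 47.2 ± 1.38 CPM (SD, n = 3; log2 fold change 1.19, SE 0.07, edgeR adjusted p = 1.71e-05). Adam17 rose by 0.38 (SE 0.06) and Sppl2a, an intramembrane protease gene, by 0.47 (SE 0.07), while Frmd8, which encodes a stabiliser of iRhom proteins, fell by 0.33 (SE 0.06). Among 3 tested family members outside the symbol rule, Rell2 fell by 1.66 (SE 0.24) and Relt by 0.28 (SE 0.08). That count of 2 (66.7%, beside 22.2% of all tested rows) was 1 without WT replicate 1 or 3 and with plain library sizes.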

How the data were processed

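RNA was sequenced from 3 WT and 3 miPEP31 KO libraries, made with Trizol and a TruSeq kit per the labels' protocols. Bowtie 0.12.2 and build mm8 appear, with no role stated, per the submitters' processing notes. For the counter, annotation and strand setting, the sources used here give nothing. The authors deposited estimated counts per gene, of which 72.2% of the values above 0 were whole (tolerance 1e-09), and these were rounded before testing. Gene symbols, exon lengths and coordinates came from GENCODE M21 (GRCm38) by gene ID. The 944 rows without an Ensembl ID held 0.903% to 1.56% of a library and stayed in. The deposited table of 30 genes holds no member and was not used.

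Rows were filtered with filterByExpr of edgeR 4.0.16 (minimum count 10), scaled with TMM and compared with the robust quasi-likelihood test, with Benjamini-Hochberg adjustment. Each SE is the absolute log2 fold change of a second fit without a prior count, divided by √F of the test. The printed log2 fold changes are those of the first fit. R 4.3.3, limma 3.58.1 and DESeq2 1.42.0 served for alternatives, and the scripts were tested on simulated data. Members, lists and pairs were chosen with earlier results of these data known. Every member is named, with all libraries for called members of at least 1.5-fold and tested pairs, and from each list up to 5 called genes by smallest p, except where a result is not reported here. Upstream sequences are RefSeq's.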

Additional observations from a re-analysis of the deposited data

How the results depend on the processing

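Of the 33 tested members, 19 kept their direction and their side of the threshold in each of up to 14 alternatives (scaling, filter, DESeq2, limma-voom, replicate block, Ensembl rows only, and each library left out). Members lower in KO numbered 9, and between 5 and 10 with 1 library left out. Signalling and processing genes lower in KO numbered 13, 8 with plain library sizes, and between 7 and 16 with 1 library left out. The log2 fold change turned for 4 members that were not called. With 1 library left out it ranged from -0.584 to 0.835 for Cd70, from -0.187 to 0.0121 for Tnfrsf12a, from -0.0427 to 0.284 for Tnfrsf23 and from -0.125 to 0.176 for Tnfsf10. Cd70 also stood at -0.0941 with limma-voom and Tnfsf10 at -0.00745 with upper-quartile scaling. The causes were not tested. Same-numbered WT and KO libraries did not deviate together (correlations across genes from -0.0156 to 0.00103). With a replicate block 5736 rows were called against 6806, Tnfrsf9 (adjusted p = 0.0537) and Tnfrsf26 (adjusted p = 0.0521) lost their call and Tnfsf11 gained one (adjusted p = 0.0470), which left 13 members higher and 7 lower, and 25 signalling genes higher and 10 lower. Depth limits Tnfsf4, Tnfsf15, Cd70 and Ltbr most, since their WT libraries held at most 23 counts.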
